A study of Rattus norvegicus with 40 samples.

Results

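The thick ascending limb genes were Umod, Slc12a1, Kcnj1, Cldn16, Cldn10, Egf and Gp2, taken as every probe that the array's gene table assigned to them. Of these 7 genes 5 were measured, among 12198 genes named on the array, on 6 of its 33849 probes. Umod, Kcnj1, Cldn10 and Egf had 1 probe each and Gp2 had 2 (GE19711 and GE1137686). Slc12a1 and Cldn16 had no annotated probe and were not analysed here. All 6 probes carried a good signal flag on all 40 arrays, so no member was lost to a filter on low values.

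The thick ascending limb is the segment of the loop of Henle that reabsorbs salt without water and so dilutes the urine. Sodium, potassium and chloride enter its cells through the cotransporter encoded by Slc12a1, potassium returns to the lumen through the Kcnj1 channel, and the resulting voltage draws cations between the cells through pores formed by claudins, Cldn10 for sodium and Cldn16 for calcium and magnesium. Umod encodes uromodulin (Tamm-Horsfall protein), the most abundant protein of normal urine. Gp2 encodes a related membrane-anchored glycoprotein, best known from pancreatic secretory granules and intestinal M cells. Egf encodes the precursor of epidermal growth factor, which is also made in the distal convoluted tubule.

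Gene expression was measured in total RNA of kidneys from male rats at 16 weeks of age, either SHRSP/Izm, which are hypertensive and prone to stroke, or WKY/Izm, which have normal blood pressure. Both strains received 1 of 4 vehicles, H2O, Solvent A (PEG300, EtOH and NaHCO3), Solvent B (NaOH) or Solvent C (0.5% MC), or 1 of 6 drugs. The drugs, all in mg/kg/day, were enalapril (20, an angiotensin-converting enzyme inhibitor), candesartan (5, an angiotensin receptor blocker), chlorothiazide (20, a thiazide diuretic), carvedilol (50, a beta and alpha-1 adrenergic blocker), amlodipine (20, a calcium channel blocker) and hydralazine (10, a vasodilator). Each of the 20 groups had 2 Cy5 CodeLink arrays, called biological replicates in the design text, and each array's label named 2 animals. Pooling of their RNA is left unstated in the labels, so p-values measure the spread between arrays, and 2 arrays per group limit the precision.

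The labels do not pair drugs with vehicles. Candesartan was compared with Solvent A, chlorothiazide with Solvent B, carvedilol with Solvent C and enalapril with H2O, since these shared a scan session, except that 1 of the 2 WKY enalapril arrays was scanned in another, and amlodipine and hydralazine were set against H2O by assumption. The array titles fall into 3 number blocks. The first block holds both H2O groups and enalapril in SHRSP. The second holds enalapril in WKY, amlodipine, hydralazine, Solvents B and C, chlorothiazide and carvedilol. The third holds Solvent A and candesartan. Candesartan, chlorothiazide and carvedilol in both strains, and enalapril in SHRSP, thus shared session and block with their vehicle. Amlodipine, hydralazine and enalapril in WKY lay in another block than H2O, so for these drug and block cannot be told apart.

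Intensities below are the deposited normalised values, on which the median probe of each array is 1. Changes are log2 differences of quantile-normalised intensities ± SE, called at a Benjamini-Hochberg adjusted p under 0.05 over 24993 tested probes (limma). In whole kidney RNA, fewer cells of a segment and less RNA per cell cannot be told apart. The 9 markers of the proximal tubule, the kidney's most extensive epithelium, summed to 968 to 1111 in SHRSP and 954 to 1082 in WKY vehicle arrays.

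Umod and Gp2 lie next to each other on chromosome 1, with 0 RefSeq genes between them in GRCr8, yet their values differed in pattern across these arrays. Cldn10, on chromosome 15, varied with Umod. The 250 bases before their annotated start sites are shown for these 3 genes, 5′ to 3′ on the gene's strand, from RefSeq on GRCr8, a reference of another rat strain. Capitals mark TATAAA, the core of a TATA box.
Gp2, chr1:183243955-183244204, minus strand: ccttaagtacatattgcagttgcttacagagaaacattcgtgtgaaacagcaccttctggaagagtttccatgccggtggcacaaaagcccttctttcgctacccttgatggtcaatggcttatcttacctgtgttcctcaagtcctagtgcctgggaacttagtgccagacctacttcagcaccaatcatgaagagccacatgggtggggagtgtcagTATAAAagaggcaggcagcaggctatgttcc
Umod, chr1:183261017-183261266, minus strand: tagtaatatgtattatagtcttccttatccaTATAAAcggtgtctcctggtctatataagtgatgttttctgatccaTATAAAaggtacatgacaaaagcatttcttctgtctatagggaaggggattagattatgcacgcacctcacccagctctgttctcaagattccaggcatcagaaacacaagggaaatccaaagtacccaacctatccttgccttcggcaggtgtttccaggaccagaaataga
Cldn10, chr15:102269608-102269857, plus strand: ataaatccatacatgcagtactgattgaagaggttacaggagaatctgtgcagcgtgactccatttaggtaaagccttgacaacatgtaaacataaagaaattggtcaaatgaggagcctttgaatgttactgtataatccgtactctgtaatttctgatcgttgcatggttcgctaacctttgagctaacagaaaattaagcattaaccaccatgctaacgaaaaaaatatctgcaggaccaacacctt

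The Gp2 window held TATAAA at -31 to -26 from the start site, and the Umod window held it at -219 to -214 and at -173 to -168. With Kcnj1, which held it at -41 to -36, 3 of the 7 genes had a match in a window, against 12.9% of 33469 RefSeq windows searched on both strands. The share is per window, while Kcnj1 and Slc12a1 had 2 windows each, of which only the first Kcnj1 window matched. GTTAAT, part of the site of the tubular factor HNF1, was present on the opposite strand of Cldn10 alone among the 7 (6.45% of windows). AAGGTCA, a site for oestrogen-related receptors, was in 0 of the 7 (3.99% of windows). These searches cover only the letters of these windows, and the 2 Slc12a1 windows overlap each other.

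The first question was whether the limb genes differed between the hypertensive and the normotensive strain. Gp2 was higher in SHRSP and Cldn10 was lower, in vehicle and in drug-treated arrays alike. Umod was higher in SHRSP over the vehicle arrays. Kcnj1 and Egf did not pass the test in either set of arrays. Over the 8 vehicle arrays of each strain 3 of the 6 probes were called, against 21.8% of all probes, and over the 12 drug arrays of each strain 3 were called, against 26.1%.

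Gp2 on probe GE19711 had the largest strain difference of the 6 probes. In SHRSP its intensity was 12.6 and 14.0 with H2O, 13.7 and 14.3 with Solvent A, 14.1 and 14.1 with Solvent B, and 14.5 and 12.6 with Solvent C. In WKY it was 9.56 and 9.83 with H2O, 8.84 and 9.51 with Solvent A, 9.16 and 10.9 with Solvent B, and 8.38 and 8.49 with Solvent C. Every SHRSP vehicle array was thus above every WKY vehicle array, which held for 4.66% of all tested probes in 1 direction or the other. The difference was 0.54 ± 0.06 on the log2 scale (1.46-fold, adjusted p = 1.05e-07 by limma) with vehicles and 0.57 ± 0.05 (1.49-fold, adjusted p = 1.02e-09) with drugs.

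Within single treatments the Gp2 difference on GE19711 ran from 0.31 with chlorothiazide to 0.81 with candesartan and was positive in 10 of 10. Arrays of the strains did not overlap in any of the 10 treatments, as for 4.66% of all probes. Across treatments the strains did overlap, since the SHRSP chlorothiazide arrays (8.39 and 9.43) were below the WKY amlodipine arrays (10.9 and 10.8). Of the 10 highest of the 20 group means, 9 were SHRSP groups.

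The second Gp2 probe, GE1137686, was dimmer and gave a smaller difference. Its SHRSP vehicle arrays ran from 2.13 through a median of 2.97 to 3.48, and its WKY vehicle arrays from 2.27 through 2.46 to 2.94, so the strains overlapped. The difference was 0.18 ± 0.07 with vehicles, which did not pass (adjusted p = 0.09 by limma), and 0.29 ± 0.06 with drugs, which did (adjusted p = 0.000665). Under 3 of 8 alternative fits the vehicle difference did pass, and over the 8 it ran from 0.16 to 0.21. Without the SHRSP H2O array at 2.13 the vehicle difference was 0.22 and passed (adjusted p = 0.0379), as it did without the first WKY H2O array (0.22, adjusted p = 0.0382) or the first WKY Solvent B array (0.22, adjusted p = 0.0466). It was positive in 9 of 10 treatments, from -0.13 with H2O to 0.45 with candesartan. Both probes carry the same transcript accession, and their values correlated at r = 0.80 (Spearman 0.77) over the 40 arrays after strain means were subtracted.

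Cldn10 went the other way. In SHRSP its intensity was 21.9 and 23.0 with H2O, 20.7 and 20.2 with Solvent A, 25.6 and 27.2 with Solvent B, and 25.0 and 22.0 with Solvent C. In WKY it was 22.2 and 27.5 with H2O, 23.5 and 25.5 with Solvent A, 32.8 and 38.5 with Solvent B, and 29.8 and 29.4 with Solvent C. The strains were closest with H2O, where their deposited intensities overlapped, and Solvent B gave the highest values in both strains. The difference was -0.29 ± 0.06 with vehicles (adjusted p = 0.00176 by limma) and -0.35 ± 0.05 with drugs (adjusted p = 1.9e-05).

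Cldn10 was lower in SHRSP in 10 of 10 treatments, a constancy of sign that 14.3% of all probes had in one direction or the other. The log2 difference ran from -0.74 with enalapril to -0.09 with amlodipine. The strains' log2 values did not overlap in 8 of the 10, as for 11.5% of all probes in at least 8. The Cldn10 probe was designed on an expressed sequence tag, and the sources used here do not say which of the gene's isoforms it detects.

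**Figure D1:**
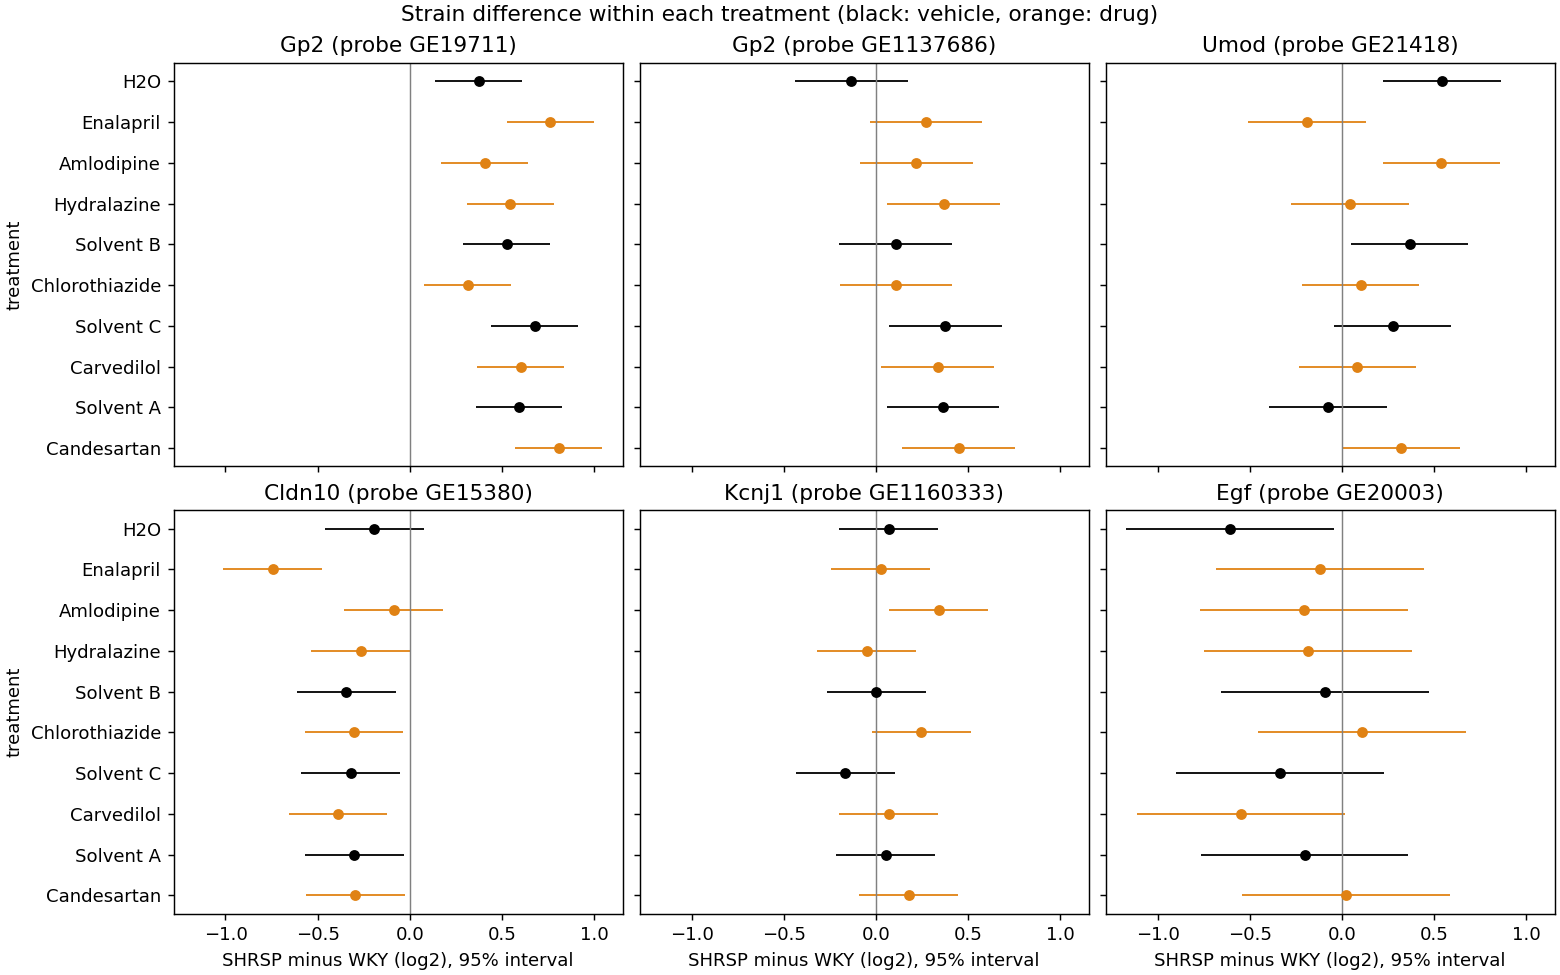
Strain difference (SHRSP minus WKY, log2, horizontal axis) within each of 10 treatments (vertical axis) for the 6 probes. Points are limma estimates and bars 95% intervals, black for vehicles and orange for drugs; Gp2 on GE19711 lies to the right of 0 in 10 of 10 treatments and Cldn10 to the left in 10 of 10.

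Umod intensity in SHRSP was 103 and 92.9 with H2O, 78.0 and 75.0 with Solvent A, 143 and 144 with Solvent B, and 128 and 114 with Solvent C. In WKY it was 58.0 and 76.0 with H2O, 82.2 and 75.8 with Solvent A, 113 and 136 with Solvent B, and 91.5 and 108 with Solvent C. Solvent B gave the highest values in both strains, Solvent A the lowest in SHRSP and H2O the lowest in WKY. The strain difference was 0.28 ± 0.08 with vehicles (adjusted p = 0.0104 by limma) and 0.15 ± 0.06 with drugs, which did not pass (adjusted p = 0.0839). Its sign was positive in 8 of 10 treatments, and its size ran from -0.19 with enalapril to 0.54 with H2O.

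Kcnj1, the apical potassium channel ROMK, ran from 8.61 to 11.5 in SHRSP and from 8.14 to 11.8 in WKY vehicle arrays. Its difference was -0.01 ± 0.06 with vehicles (95% interval -0.14 to 0.12) and 0.14 ± 0.05 with drugs (adjusted p = 0.064 by limma). Egf ran from 16.9 through a median of 23.9 to 29.1 in SHRSP, and from 26.5 through 30.3 to 32.3 in WKY vehicle arrays. The Egf difference of -0.31 ± 0.14 with vehicles (95% interval -0.59 to -0.03) did not pass (adjusted p = 0.116), nor did -0.15 ± 0.11 with drugs (adjusted p = 0.348). Egf was lower in SHRSP in 8 of 10 treatments. Its vehicle difference passed under 3 of 8 alternative fits. Among these were scan session as a fixed block (-0.31 ± 0.08, adjusted p = 0.00449 by limma) and only the compared groups (adjusted p = 0.0226). The fixed block had terms for sessions 2 and 5 only, which hold no vehicle arrays. It left the vehicle estimate unadjusted and changed its SE alone, from 0.14 to 0.08. The drug differences of Umod and Kcnj1 passed when session was a fixed block (0.14 ± 0.05, adjusted p = 0.0373, and 0.13 ± 0.04, adjusted p = 0.032), with median scaling (adjusted p = 0.0203 and 0.0298) and on the authors' tables as given (adjusted p = 0.0266 and 0.0422), and that of Kcnj1 also with session as a random block (adjusted p = 0.0412). They passed too without the first WKY hydralazine array (0.19, adjusted p = 0.0222, and 0.17, adjusted p = 0.00917) or the second SHRSP hydralazine array (0.19, adjusted p = 0.014, and 0.16, adjusted p = 0.0207). That of Umod also passed without the first WKY candesartan array (0.18, adjusted p = 0.0444), and that of Egf without the second WKY hydralazine array (-0.25, adjusted p = 0.0438).

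Markers of other cell types also differed between the strains in the vehicle arrays. Of the markers tested, 3 of 3 smooth muscle, 4 of 4 endothelial and 4 of 5 macrophage genes were higher in SHRSP, and of 6 tubular injury genes 4 were higher and 2 lower. Summed levels were 42.0 to 48.6 in SHRSP against 29.6 to 35.5 in WKY for smooth muscle, 51.9 to 61.0 against 40.7 to 50.5 for endothelium, and 39.3 to 60.1 against 26.6 to 37.5 for macrophages. Those of 4 distal convoluted tubule genes were 105 to 123 against 90.7 to 103. Of 3 podocyte genes 2 were higher, with a summed level of 24.1 to 25.9 against 19.0 to 23.6. Of 9 proximal tubule markers 2 were higher and 1 lower, of 6 principal cell markers 1 was higher, and of 4 intercalated cell and 4 inner medulla markers 1 each was higher and 1 lower, the osmolyte transporter Slc5a3 of the inner medulla list by 1.60 ± 0.14. None of these lists had a marker at the intensity floor on all arrays of a strain. Their part in the limb genes' differences was not tested.

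**Figure D2:**
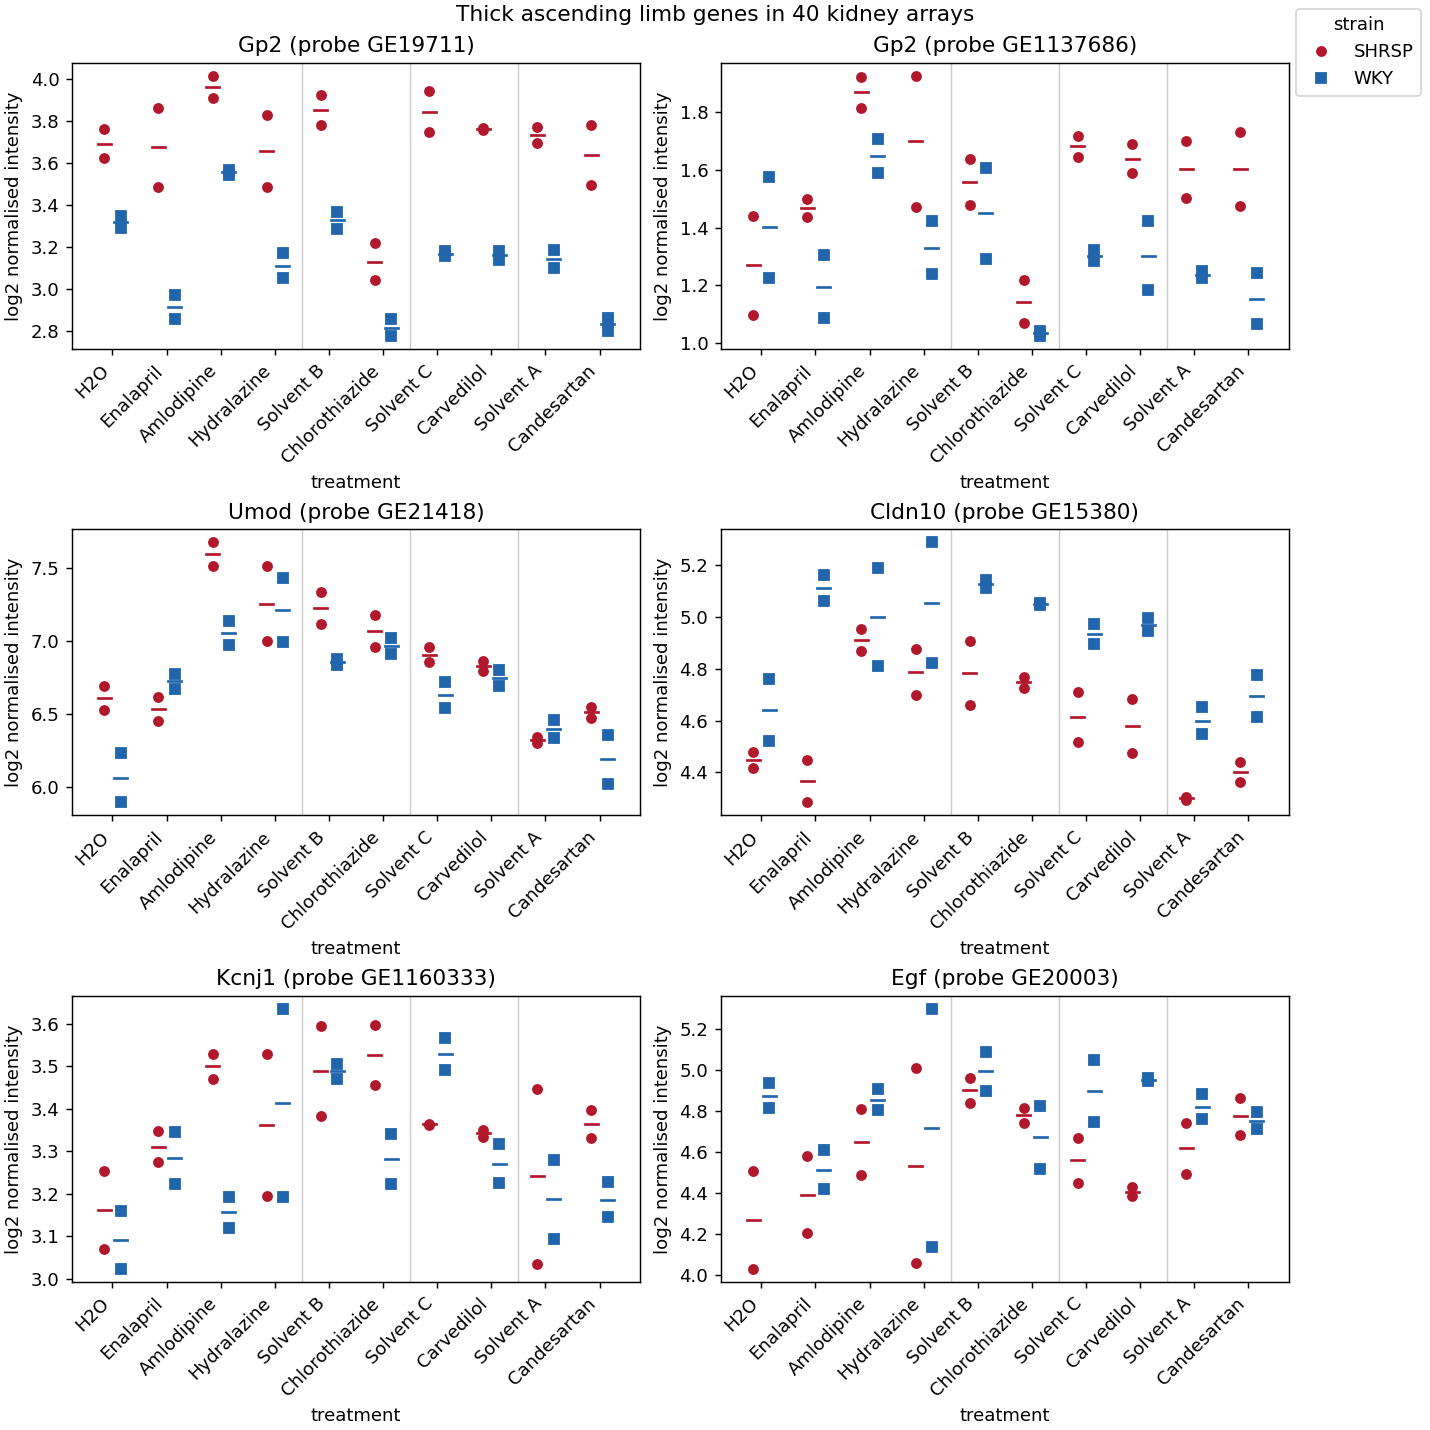
Log2 of the quantile-normalised intensity (vertical axis) of each of the 6 probes on all 40 arrays by treatment (horizontal axis), with SHRSP as red circles, WKY as blue squares and the group mean as a short line. Gp2 shows SHRSP above WKY and low values with chlorothiazide in both strains; Umod is lowest with WKY H2O and highest with SHRSP amlodipine. Grey lines part the drugs by the vehicle used for them.

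The second question was how each drug changed these genes against its vehicle. With chlorothiazide, the thiazide diuretic, Gp2 fell by 0.62 ± 0.08 on the log2 scale on probe GE19711, to 0.652 of the level with Solvent B (adjusted p = 0.000422 by limma, 4 arrays against 4). It was the 1 of 6 limb probes called, where 0.112% of all probes were. In SHRSP the intensity was 8.39 and 9.43 with chlorothiazide against 14.1 and 14.1 with Solvent B. In WKY it was 6.83 and 7.60 against 9.16 and 10.9. All chlorothiazide arrays were below the Solvent B arrays of their own strain, as for 4.06% of probes, and the SHRSP chlorothiazide intensities lay at the level of the WKY vehicle arrays, 8.38 to 10.9 on the deposited scale. On the log2 scale the first of them, at 3.04, was below the lowest WKY vehicle array, at 3.10.

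By strain, the Gp2 change was -0.72 ± 0.11 in SHRSP (adjusted p = 0.0108 by limma, with 0.048% of all probes called) and -0.51 ± 0.11 in WKY, which did not pass (adjusted p = 0.172, 0.052% called). The difference between these changes was -0.21 ± 0.16 and did not pass (adjusted p = 1, 0.004% called). On GE1137686 intensities were 2.15 and 2.38 against 2.92 and 3.09 in SHRSP, and 2.06 and 2.10 against 2.94 and 2.53 in WKY. Its change of -0.42 ± 0.10 over both strains was -0.41 in SHRSP and -0.42 in WKY, and did not pass (adjusted p = 0.242). Fitted on the 8 arrays of the comparison alone, the GE19711 change missed the threshold (adjusted p = 0.0947). In SHRSP it missed it without the second Solvent B array (-0.65, adjusted p = 0.191) or the first chlorothiazide array (-0.63, adjusted p = 0.0952). With both probes, all 8 chlorothiazide values lay below all Solvent B values of the same strain and probe. They come from 4 arrays read by both probes of the same transcript, so they are not 8 separate observations. The share of all features separating on both probes was not computed.

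The other limb genes did not pass with chlorothiazide. Umod changed by -0.03 ± 0.11, Kcnj1 by -0.09 ± 0.09, Cldn10 by -0.06 ± 0.09 and Egf by -0.22 ± 0.19. The 95% interval was -0.25 to 0.20 for Umod and -0.25 to 0.13 for Cldn10, and neither interval reached the change of Gp2 on GE19711. The interval of Egf, -0.62 to 0.18, did.

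Genes of other tubule cell types also moved with chlorothiazide. Of 4 distal convoluted tubule markers 2 fell, Slc12a3, the drug's target cotransporter (-0.49 ± 0.07), and the calcium-binding protein Calb1 (-0.73 ± 0.10), and their summed level was 59.2 to 85.4 against 91.3 to 113. Of 4 intercalated cell markers 2 rose, the proton pump subunits Atp6v1g3 (0.48 ± 0.09) and Atp6v0d2 (0.36 ± 0.05), and the summed level was 89.0 to 92.2 against 68.2 to 73.2. Of 10 other limb transport genes 0 were called, with a summed level of 630 to 693 against 608 to 690. That sum is weighted to its brightest genes, among them the sodium pump subunit Atp1b1 (mean log2 8.34 with Solvents B and C), and does not measure the amount of limb. None of these lists had a marker at the floor on all arrays of a group. The distal convoluted tubule marker Pvalb was close to it, at a mean log2 of -1.36 with chlorothiazide and -1.21 with Solvent B. The part of these cell types in the Gp2 change was not tested.

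Candesartan and carvedilol shared session and block with their vehicles as chlorothiazide did, and share no arrays with it. Neither changed a limb gene past the test, with 0.052% and 0.148% of all probes called. Gp2 on GE19711 changed by -0.20 ± 0.08 with candesartan (adjusted p = 1 by limma) and by -0.05 ± 0.08 with carvedilol (adjusted p = 0.994). With candesartan its intensity was 14.1 and 11.7 against 13.7 and 14.3 in SHRSP, and 7.40 and 7.86 against 8.84 and 9.51 in WKY. The chlorothiazide change minus the mean of these was -0.49 ± 0.10 and missed the threshold (adjusted p = 0.0634, 0.072% of probes called), so the call with chlorothiazide was not shown to differ from the other drugs.

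With candesartan the changes of the other limb genes ran from -0.04 for Gp2 on GE1137686 to 0.10 for Cldn10, and with carvedilol from -0.14 for Kcnj1 to 0.02 for Umod. Within strains 0 of 6 probes passed with candesartan (0.044% of all probes called in SHRSP and 0.056% in WKY) or carvedilol (0.168% and 0.12%). The strain differences of these changes gave 0 of 6 as well (0.016% for candesartan and 0.068% for carvedilol).

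Enalapril in SHRSP, in the same block as H2O, changed none of the limb probes past the test (0.98% of all probes called). Umod changed by -0.07 ± 0.15, Gp2 on GE19711 by -0.02 ± 0.11 and Cldn10 by -0.08 ± 0.13. Averaged over the 7 comparisons that shared session and block with their vehicle, Gp2 on GE19711 fell by 0.25 ± 0.04 on the log2 scale (adjusted p = 0.0122 by limma, 0.16% of probes called). Without the 2 chlorothiazide comparisons the average was -0.10 ± 0.05 and did not pass (adjusted p = 0.737, 0.236% called). On the authors' tables as given the average over all 7 was -0.22 and missed the threshold (adjusted p = 0.0727). The averages of Umod (-0.02 ± 0.06), Cldn10 (0.00 ± 0.05), Kcnj1 (-0.03 ± 0.05) and Egf (-0.05 ± 0.10) did not pass.

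**Figure D3:**
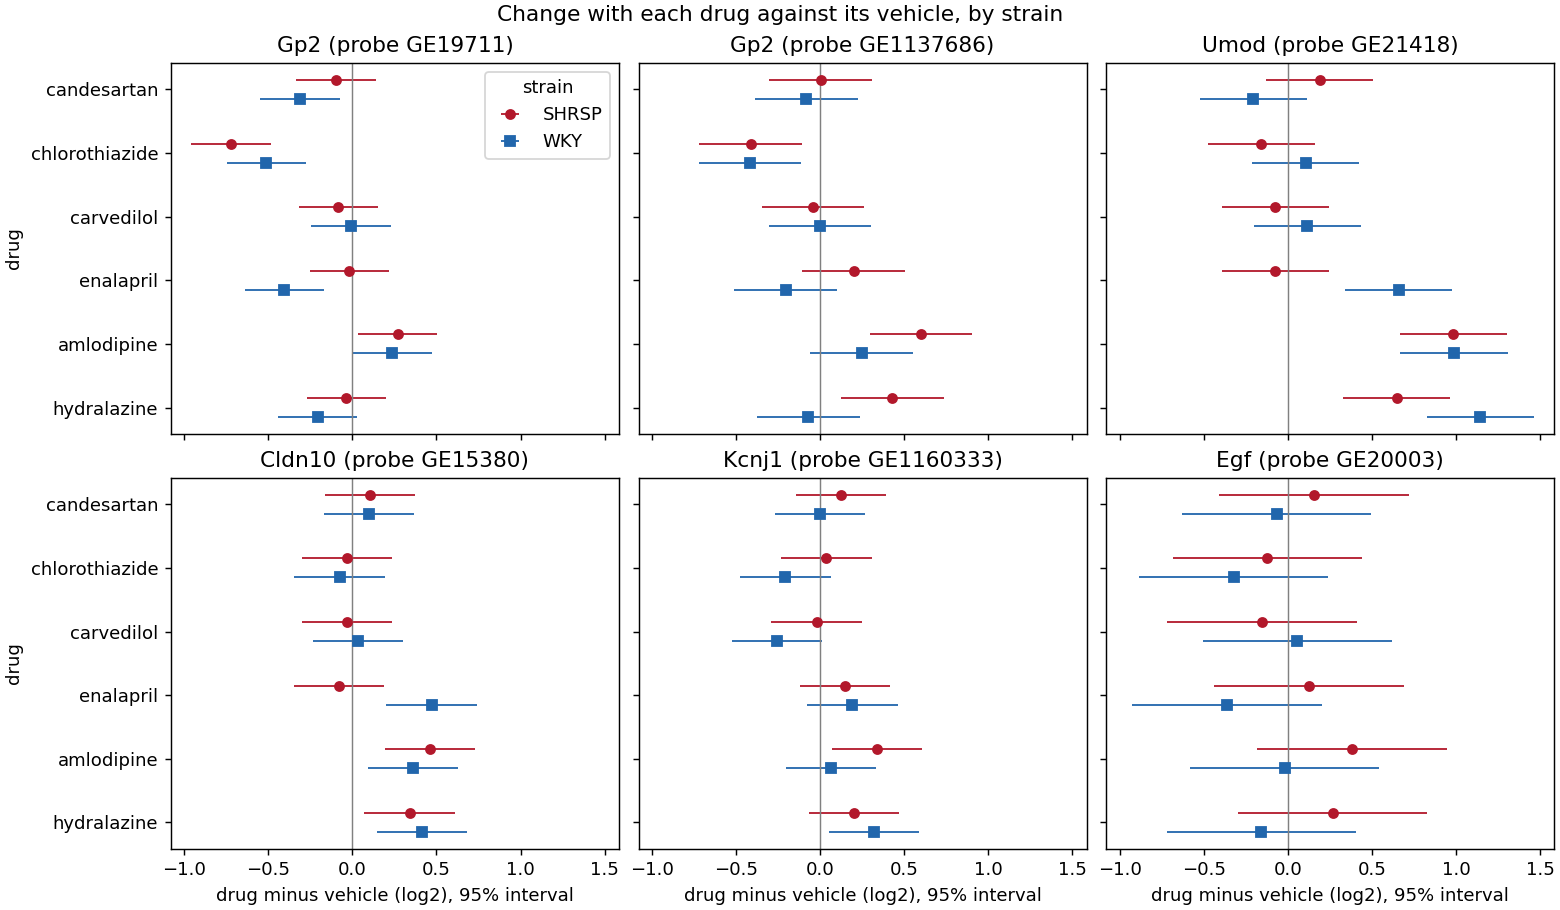
Change with each drug against its vehicle (log2, horizontal axis) for the 6 probes, with SHRSP as red circles and WKY as blue squares. Bars are 95% intervals; Gp2 with chlorothiazide lies below 0 in both strains on both probes, and Umod lies above 0 with amlodipine and hydralazine, whose H2O controls lie in another block of array titles.

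With amlodipine and hydralazine, Umod, the limb's secreted glycoprotein, was the limb gene with the largest increase against H2O. Its intensity was 184 and 200 with amlodipine and 181 and 156 with hydralazine in SHRSP, against 103 and 92.9 with H2O. In WKY it was 115 and 126 with amlodipine and 164 and 149 with hydralazine, against 58.0 and 76.0. No drug array overlapped the H2O arrays of its strain, a separation whose share over all probes was not computed. Umod rose by 0.99 ± 0.11 with amlodipine (1.98-fold, adjusted p = 7.13e-07 by limma) and by 0.90 ± 0.11 with hydralazine (1.86-fold, adjusted p = 3.64e-06).

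These comparisons called many genes. With amlodipine 4 of the 6 limb probes rose, against 31.4% of all probes called, 3847 up and 3998 down. With hydralazine 3 rose, against 29.1%, 3512 up and 3752 down. Shares of all probes called count both directions throughout. Cldn10 rose by 0.41 ± 0.09 with amlodipine and 0.38 ± 0.09 with hydralazine. Gp2 rose with amlodipine, by 0.42 ± 0.10 on GE1137686 and 0.25 ± 0.08 on GE19711, and did not pass with hydralazine (0.18 ± 0.10 and -0.12 ± 0.08). Kcnj1 rose with hydralazine, by 0.26 ± 0.09 (adjusted p = 0.0363 by limma), and was 0.20 ± 0.09 with amlodipine (adjusted p = 0.1). The hydralazine call of Kcnj1 ended without the first hydralazine array of either strain or the second H2O array of either strain (0.15 to 0.23). The amlodipine call of Gp2 on GE19711 ended without the first SHRSP or second WKY H2O array, or the first WKY or second SHRSP amlodipine array (0.22 to 0.25).

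By strain, Umod, Cldn10 (0.46 ± 0.13) and Gp2 on GE1137686 (0.60 ± 0.15), 3 of 6 probes, rose with amlodipine in SHRSP (20.3% of all probes called) and 1, Umod, in WKY (15.6%). With hydralazine Umod rose in SHRSP (15.6%), and Umod and Cldn10 rose in WKY (15.3%). In SHRSP the amlodipine calls of Cldn10 ended without either H2O array or the first amlodipine array (0.42 to 0.49), and that of Gp2 without the first H2O (0.43) or the second amlodipine array (0.55). The hydralazine call of Umod in SHRSP ended without the second H2O (0.56) or the first hydralazine array (0.39), and that of Cldn10 in WKY without the first H2O (0.30) or the first hydralazine array (0.18). In WKY, Cldn10 passed with amlodipine without its first array (0.55). With hydralazine in WKY, Kcnj1 passed without its second array (0.54) and Egf without its first (-0.74). Gp2 on GE1137686 passed with hydralazine without the second SHRSP hydralazine array (0.29 over both strains and 0.66 in SHRSP), and in SHRSP also without the second H2O array (0.60). No limb probe passed the test of a strain difference in the change, with 0.396% of all probes called for amlodipine and 0.372% for hydralazine. The changes of Umod with amlodipine were 0.98 ± 0.15 in SHRSP and 0.99 ± 0.15 in WKY. Those with hydralazine were 0.65 ± 0.15 and 1.15 ± 0.15, whose difference of -0.50 ± 0.22 did not pass (adjusted p = 0.402). With scan session as a fixed block Umod was 0.61 ± 0.22 with amlodipine, which did not pass (adjusted p = 0.116), and 0.76 ± 0.20 with hydralazine, which did (adjusted p = 0.0422). Cldn10 was -0.01 with amlodipine and 0.12 with hydralazine in that fit, and neither passed.

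Markers of other cell types also differed from H2O in the same comparisons. Against H2O, 2 of 4 intercalated cell and 2 of 4 inner medulla markers rose with amlodipine, and 1 of 4 and 2 of 4 with hydralazine. Of all probes 31.4% and 29.1% were called there, and drug and title block cannot be told apart. The summed intercalated level was 75.7 to 93.8 with amlodipine and 66.9 to 75.6 with hydralazine against 59.8 to 68.6 with H2O. With Solvents B and C, in the same block as the drugs, it was 66.1 to 73.2. The summed inner medulla level was 53.3 to 66.9 and 50.9 to 69.3 against 46.5 to 50.0. With Solvents B and C it was 50.7 to 71.5, a range that held both drugs. Of 4 endothelial markers 2 fell with amlodipine and 3 with hydralazine. The 10 other limb transport genes summed to 638 to 684 and 678 to 697 against 698 to 743, while Umod was higher. With Solvents B and C these 10 genes summed to 608 to 695. Bright genes such as Atp1b1 weigh most in that sum, so it does not measure the amount of limb. The part of these cell types in the limb genes' changes was not tested.

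The vehicles themselves differed by block for the same genes. Against H2O, the mean of Solvents B and C was higher by 0.57 ± 0.09 for Umod (adjusted p = 0.000115 by limma), 0.34 ± 0.08 for Kcnj1 and 0.32 ± 0.08 for Cldn10, with 30.3% of all probes called. Against Solvent A it was higher by 0.55 ± 0.09 for Umod, 0.25 ± 0.08 for Kcnj1 and 0.42 ± 0.08 for Cldn10, with 31.6% called. Gp2 did not pass in either comparison, at 0.04 ± 0.07 and 0.11 ± 0.07 on GE19711. Solvent, scan session and title block cannot be told apart in these vehicle comparisons.

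Amlodipine and hydralazine were therefore also compared with Solvents B and C, which share their block but not their session. Umod was still higher, by 0.42 ± 0.09 with amlodipine (adjusted p = 0.00614 by limma, 10.9% of all probes called) and by 0.33 ± 0.09 with hydralazine (adjusted p = 0.0477, 4.53% called). On the log2 scale of the test the amlodipine arrays were above all these vehicle arrays in both strains, while on the deposited scale the WKY intensities of 115 and 126 lay within the WKY vehicle range of 91.5 to 136. How many of all probes separate in that way was not computed. The amlodipine call held without any 1 of its 12 arrays. All amlodipine arrays were in scan session 2, which held no vehicle array. Leaving out single arrays therefore does not separate drug from session, and these cannot be told apart for amlodipine. The hydralazine call was lost without any of 8 of its 12 arrays (0.20 to 0.34 without these), all but the second hydralazine array of each strain, the second SHRSP Solvent B array and the second WKY Solvent C array. It also differed by scan session. Umod on the log2 scale was 7.51 in SHRSP and 7.43 in WKY on the hydralazine arrays of session 2, and 7.00 and 6.99 on those of session 5. With the session 2 arrays only, Umod was 0.57 ± 0.09 above Solvents B and C (adjusted p = 0.00106), and with the session 5 arrays only 0.09 ± 0.09 (adjusted p = 0.571). With all arrays none of the other 5 limb probes passed with either drug. Cldn10 was 0.09 ± 0.08 and 0.06 ± 0.08, and Kcnj1 was -0.14 ± 0.08 and -0.08 ± 0.08. Gp2 with amlodipine was 0.26 ± 0.09 on GE1137686 (adjusted p = 0.0658) and 0.21 ± 0.07 on GE19711 (adjusted p = 0.0536). The first passed without the first WKY Solvent B array (0.30, adjusted p = 0.0414) and the second without the first SHRSP Solvent C array (0.24, adjusted p = 0.04). With the session 5 hydralazine arrays only, Egf (-0.74 ± 0.12), Kcnj1 (-0.27 ± 0.08) and Gp2 on GE19711 (-0.28 ± 0.08) passed below Solvents B and C, and with the session 2 arrays none of these did (0.32, 0.11 and -0.05). Without the first WKY hydralazine array Egf passed (-0.50), and without the first SHRSP one Gp2 on GE19711 did (-0.25).

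The direct comparison of amlodipine with hydralazine needs no vehicle, though the hydralazine arrays were divided over 2 scan sessions. Gp2 on GE19711 was higher with amlodipine by 0.38 ± 0.08 (adjusted p = 0.0381 by limma, 0.38% of all probes called). Its intensity was 14.5 and 15.1 with amlodipine against 13.2 and 12.2 with hydralazine in SHRSP, and 10.9 and 10.8 against 8.29 and 8.88 in WKY. The call was lost without any 1 of the 4 amlodipine arrays or without the second hydralazine array of either strain (0.29 to 0.40). Within session 2, against the hydralazine arrays of that session only, the difference was 0.26 ± 0.09 and did not pass (adjusted p = 0.143), and against those of session 5 it was 0.49 ± 0.09 (adjusted p = 0.00073). On GE1137686 the difference was 0.24 ± 0.10 and did not pass (adjusted p = 0.327), except without the first SHRSP hydralazine array (0.36, adjusted p = 0.0492). Umod (0.09 ± 0.11), Cldn10 (0.03 ± 0.09), Kcnj1 (-0.06 ± 0.09) and Egf (0.13 ± 0.19) did not pass either. Umod and Egf changed sign with the session of the hydralazine arrays, from -0.15 and -0.40 against session 2 to 0.33 and 0.66 against session 5.

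Enalapril in WKY, in another block than its H2O controls, gave 3 calls among the 6 limb probes, against 6.38% of all probes. Umod rose by 0.66 ± 0.15 (103 and 112 against 58.0 and 76.0), Cldn10 rose by 0.47 ± 0.13 (32.8 and 38.4 against 22.2 and 27.5), and Gp2 on GE19711 fell by 0.41 ± 0.11 (7.90 and 7.96 against 9.56 and 9.83). All 3 calls ended without the first H2O array (Umod 0.49, Cldn10 0.35, Gp2 -0.38). Without the second enalapril array Cldn10 (0.42) and Gp2 (-0.35) lost theirs, and without the second H2O array Gp2 (-0.43) did. Against Solvents B and C, in the same block, 0 of the 6 passed (limma, 0.872% of all probes called). There Umod was -0.02 ± 0.13 and Cldn10 0.08 ± 0.11, while Gp2 was -0.33 ± 0.10 (adjusted p = 0.125). Over both strains enalapril called 0 of 6 (2.09% of all probes), and its strain difference called 0 of 6 (2.83%), with Umod nearest at -0.73 ± 0.22 (adjusted p = 0.0694), which passed with session as a fixed (-0.78, adjusted p = 0.0306) or random block (-0.80, adjusted p = 0.027), with median scaling (-0.68, adjusted p = 0.0475) and without the second H2O array of WKY (-0.90, adjusted p = 0.0296).

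**Figure D4:**
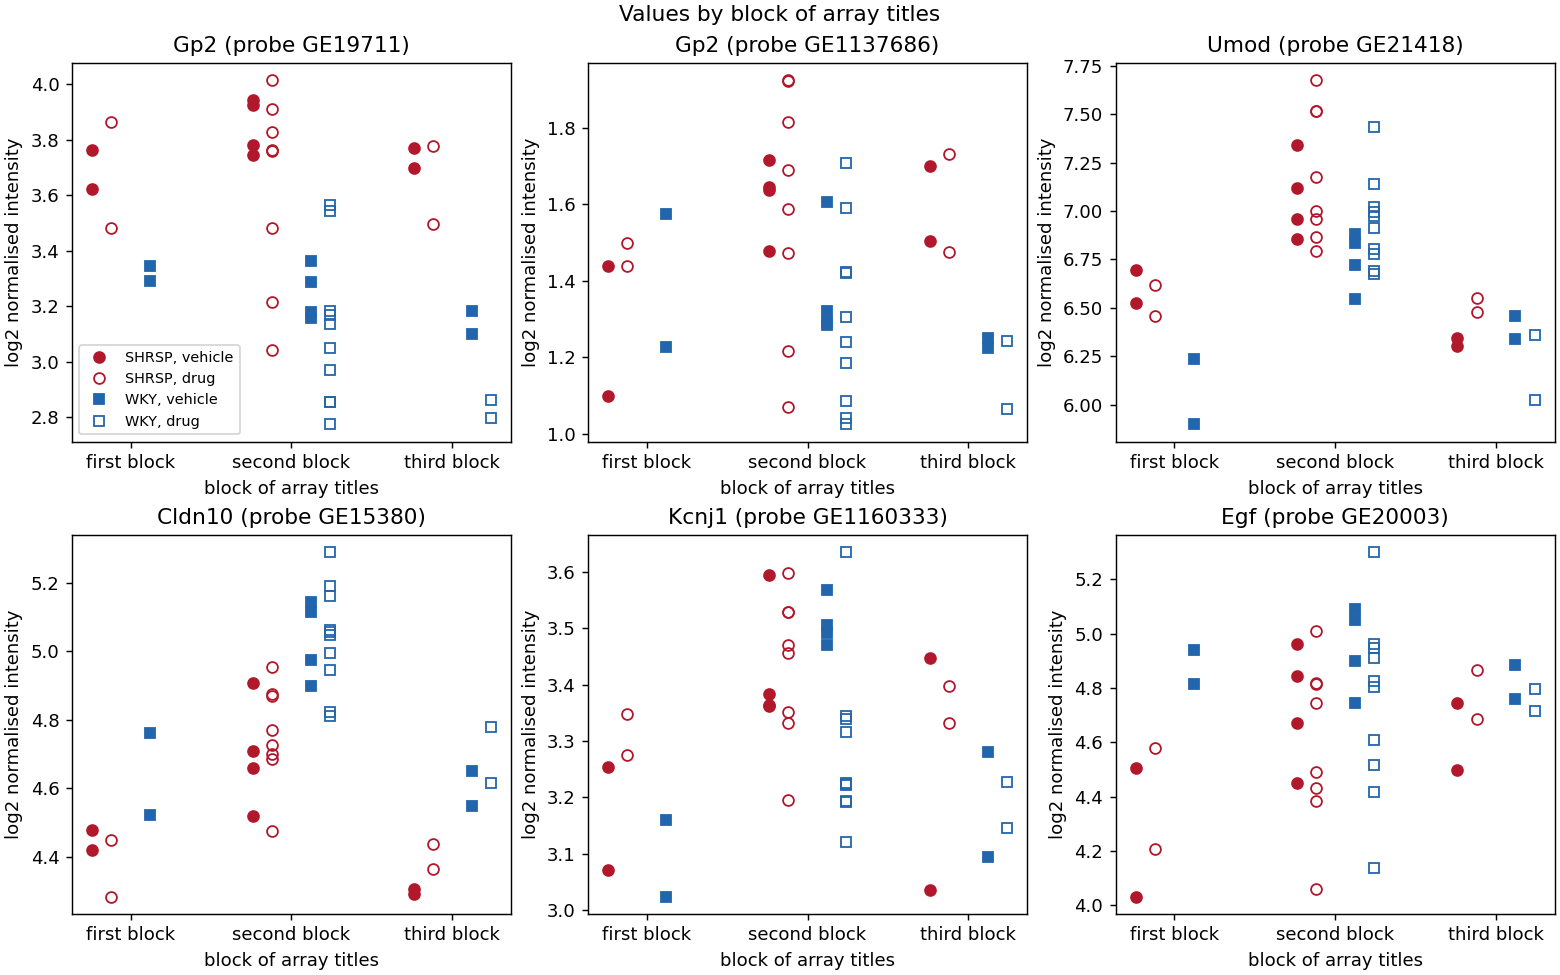
Log2 of the quantile-normalised intensity (vertical axis) of each probe by block of array titles (horizontal axis), SHRSP as red circles and WKY as blue squares, filled for vehicles and open for drugs. Umod, Cldn10 and Kcnj1 vehicle arrays have higher means in the second block than in the other two, while Gp2 on GE19711 means differ less, from 3.69 to 3.85 in SHRSP and 3.14 to 3.32 in WKY.

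Across the 40 arrays, after strain means were subtracted, the limb genes fell into different patterns. Umod and Cldn10 correlated at r = 0.88 (Spearman 0.88), Kcnj1 with Cldn10 at 0.61 and with Umod at 0.56, and Kcnj1 with Egf at 0.56. Umod correlated with its genomic neighbour Gp2 at 0.17 on GE19711 and 0.26 on GE1137686. These arrays share sessions and title blocks, so the coefficients are descriptions. By group mean, Umod ran from 6.07 on the log2 scale in WKY H2O to 7.59 in SHRSP amlodipine, and Gp2 on GE19711 from 2.81 in WKY chlorothiazide to 3.96 in SHRSP amlodipine. Of 19 gaps between neighbouring group means, 1 exceeded the pooled SD of 0.16 for Umod and 3 exceeded 0.11 for Gp2, so most neighbours in these orders did not differ beyond their spread. For Cldn10, Kcnj1 and Egf 0 gaps did.

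The genes most like the mean standardised profile of the limb genes, 1 probe a gene, among 8859 named probes flagged good throughout, were Ybx1 (r = 0.88), Hpgd (0.83), Xpc (0.82), Gpr12 (0.81) and Ddx5 (0.81). The least like were Rsu1 (-0.87), Fcsk (-0.86) and Kdm5a (-0.82). The profile itself averaged -0.67 in the first title block, 0.34 in the second and -0.59 in the third, in SD units averaged over the members.

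Other thick ascending limb genes gave the setting for these values. Of 60 listed, 39 were measured: 10 transport, 19 regulatory and 5 transcription factor genes and 5 others. Between the strains with vehicles 4 were higher in SHRSP, 6 lower and 29 did not pass (median -0.03 on the log2 scale, against 0.00 over all probes), so the share called was near the 21.8% of all probes. The prostaglandin receptor Ptger3 was higher by 0.36 ± 0.07, the kinase Sgk1 by 0.44 ± 0.12, the kinase Wnk1 by 0.17 ± 0.05 and the transcription factor Tfap2b by 0.17 ± 0.04. The calcium-sensing receptor Casr (-0.57 ± 0.08), the glucagon receptor Gcgr (-0.43 ± 0.05), the parathyroid hormone receptor Pth1r (-0.39 ± 0.05) and the phosphatase inhibitor Ppp1r1a (-0.22 ± 0.05) were lower.

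In the drug arrays 7 of the 39 were higher in SHRSP and 7 lower, against 26.1% of all probes called. Casr (-0.49 ± 0.06) and Pth1r (-0.33 ± 0.04) were again lower and Sgk1 (0.57 ± 0.10), Wnk1 (0.36 ± 0.04), Ptger3 (0.26 ± 0.06) and Tfap2b (0.17 ± 0.03) again higher. With chlorothiazide, candesartan, carvedilol and enalapril in SHRSP 0 of the 39 were called. With amlodipine 5 rose and 4 fell against H2O, and with hydralazine 7 rose and 8 fell, while the vehicles of the second block differed from H2O in 14 of them, 8 higher and 6 lower. Of all probes 31.4%, 29.1% and 30.3% were called in these comparisons. Against Solvents B and C amlodipine raised 2, the potassium channel Kcnma1 (0.50 ± 0.13) and the kinase scaffold Cab39l (0.31 ± 0.08), and lowered 4, among them the transcription factors Irx1 (-0.34 ± 0.10) and Tfap2b (-0.18 ± 0.05). Hydralazine lowered 2, the basolateral potassium channel Kcnj16 (-0.21 ± 0.05) and Tfap2b (-0.21 ± 0.05), and raised 0. Of all probes 10.9% and 4.53% were called there.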

How the data were processed

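For each of 40 CodeLink arrays the authors deposited, per the file headers, 1 normalised intensity and 1 signal flag a probe. How they normalised, and with which software, the sources used here do not say. The median intensity was 1 on every array, and 9269 intensities were not above 0, as after a background subtraction. The deposited series table held the same values (largest difference 0) and supplied the probe names and an alternative.

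Intensities were quantile normalised, set to a floor of 0.38 (array 1st percentiles of good-flagged values ran from 0.248 to 0.567) and taken to log2. Between 59.3% and 72.6% of probes per array had a good flag. The test took 24993 of 33849 probes, those flagged good on both arrays in 1 group or more that had values throughout the groups. Of the probes 16753 had 1 gene symbol, 165 several and 16931 none, and symbols were updated through RefSeq GRCr8. Of 780 array pairs 0 were identical.

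limma 3.58.1 in R 4.3.3 (lmFit, eBayes) fitted 20 group means to all 40 arrays with 20 residual degrees of freedom. The threshold was an adjusted p of 0.05. The code was tested on simulated data. Members, gene lists and markers were chosen with earlier results of these data known. All member probes are named. Of the other limb genes, each on its brightest probe, up to 4 called per direction are named by smallest p, and the likeness ranking gives the 5 highest and 3 lowest genes. The marker genes named with chlorothiazide are those called in their lists. Comparisons with Solvents B and C, amlodipine minus hydralazine, the vehicle differences, single-treatment strain differences, the average without chlorothiazide and the split of hydralazine by scan session were added after seeing the data. Plots were drawn with Matplotlib 3.10.9, and tables read with pandas 2.3.3 under Python 3.11.15. Alternatives are in the closing section.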

Additional observations from a re-analysis of the deposited data

Results flagged for a closer look

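Among the 8 SHRSP vehicle arrays, Gp2 on probe GE1137686 had 1 array far below the others, with an intensity of 2.13 on an H2O array. On the log2 scale its gap to the next array was 0.551 of the whole range. It was 1 of 12 sets of vehicle arrays examined, and chance alone gives such a gap in about 1 in 20. On the other Gp2 probe the same array had 12.6, where the SHRSP vehicle arrays ran from 12.6 to 14.5. With H2O the strain difference on GE1137686 was -0.13, the 1 of 10 treatments in which it was negative, and without that array the vehicle difference over all 4 vehicles was 0.22 (adjusted p = 0.0379 by limma).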

How the results depend on the processing

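The strain differences of Gp2 on GE19711 and of Cldn10, with vehicles and with drugs, kept direction and call under every alternative run. With vehicles they ran from 0.5177 to 0.5672 and from -0.3209 to -0.2589 when any 1 array was left out. Among the 6 limb probes the number called between strains with vehicles was 5 when scan session was a fixed block, and with drugs it was 5 with median scaling, the authors' tables or session as a fixed block. The fixed block had terms for sessions 2 and 5 only, which hold no vehicle arrays. For strain with vehicles it thus changed the estimated spread and not the difference. Fitting only the compared groups gave 0 calls for chlorothiazide (Gp2 adjusted p = 0.0947 by limma), chlorothiazide in SHRSP, amlodipine in each strain, hydralazine over both strains and in each strain, and enalapril in WKY. Session as a fixed block gave 0 for amlodipine over both strains and in each strain, 0 for hydralazine in SHRSP and 1 for hydralazine over both, hydralazine in WKY, enalapril in WKY and the enalapril strain difference (Umod). As a random block it gave 1 for amlodipine over both and in SHRSP, hydralazine over both and in WKY, and the enalapril strain difference. Median scaling gave 1 for enalapril and for its strain difference and 2 for hydralazine in SHRSP. The authors' tables gave 2 for hydralazine in SHRSP and 0 for the matched average, and probes good on all 40 arrays gave 2 for hydralazine in SHRSP. All 4 vehicles pooled gave 2 for amlodipine and 1 for hydralazine in WKY. Solvents B and C as vehicle gave 1 for amlodipine, 1 for hydralazine and 0 for enalapril in WKY, and the matched average without chlorothiazide gave 0. The cause was not tested, except that fewer arrays enter the smaller fits. The shares of all probes called in these fits, and in those without 1 array, are not given here. The counts therefore describe the 6 limb probes only. Among values that had passed the test, those that reversed were Cldn10 with amlodipine (-0.0091 with a fixed block), Kcnj1 with hydralazine (-0.0797) and Umod with enalapril in WKY (-0.0199), the last pair with Solvents B and C. Values that had not passed changed sign too, for example Egf with amlodipine, from 0.1809 to -0.6842 with session as a fixed block (0.3814 to -0.4838 in SHRSP).

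Leaving out 1 array gave 3 to 4 calls for strain with vehicles, 3 to 5 with drugs, 0 to 1 for enalapril and its strain difference, 0 to 3 for enalapril in WKY, 3 to 4 for amlodipine, 1 to 2 for amlodipine in SHRSP and in WKY, 2 to 4 for hydralazine, 0 to 2 in SHRSP and 1 to 3 in WKY. Chlorothiazide kept 1 call throughout (adjusted p = 0.000819 to 0.00574 by limma) and 0 to 1 in SHRSP. Scalings moved the median of all probes by at most 0.0884. No paired analysis was possible because the labels give no replicate numbers.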
